A study of Mus musculus with 6 samples.

Results

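The genes described here are Pomc, which encodes the hormone precursor pro-opiomelanocortin, and 9 genes of the machinery that stores and cuts such precursors: the prohormone convertases Pcsk1 and Pcsk2, the trimming and amidating enzymes Cpe and Pam, the granins Chga, Chgb, Scg2 and Scg3, and Scg5, the chaperone of the Pcsk2 convertase. They were taken by gene symbol, and all 10 were among the 22851 genes of the deposited count table. The members were chosen by gene family with the knockout-against-WT fold changes of the same table already known, so their values in this contrast are given as a description and carry no p-value. Statements that a member did or did not pass a test threshold are part of this description. The study asked which genes depend on Edf1, a small transcriptional coactivator and ribosome-associated protein, while radial glial cells turn into multiciliated ependymal cells, the ciliated lining of the brain ventricles. Radial glia were isolated from the brains of newborn C57BL/6J mice, grown with serum and then kept without serum for 6 days. The groups were WT cells and Edf1 KO cells, from mice in which Edf1 was disrupted with Cas9, with 3 libraries each and the same induction in both. The number of founder lines and the cells in which the allele acts are not given in the sources used here. The series text calls the 3 libraries of a genotype biological replicates but does not say that they came from separate animals, so errors measure the spread between these libraries.

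Peptide hormones are made as long precursors that enter the secretory pathway. In the regulated branch of that pathway, granins aggregate in the trans-Golgi network and help to form dense-core granules, convertases cut the precursor at pairs of basic residues, carboxypeptidase E removes the exposed basic residues, and PAM amidates peptides that end in glycine. Pro-opiomelanocortin yields corticotropin, melanocortins and beta-endorphin, and is best known from pituitary corticotrophs and melanotrophs and from neurons of the hypothalamus. Cpe, Scg3 and Pam are also expressed by astroglia, while Pcsk1, Chga, Chgb and Scg2 are classical markers of neuroendocrine cells and neurons.

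Libraries held 13071766 to 28087006 counts, and Edf1 had 80.1 to 85.8 CPM (counts per 1000000 counts of the library, scaled for library composition) in WT against 9.83 to 13.2 CPM in knockout libraries. Of the short stretches of Edf1 transcript sequence, 12.3% also occur in other genes, mainly Gm11964, so a part of its reads cannot be assigned with certainty. Of 14 ependymal markers, all had counts, and their summed level was 2277 to 2513 CPM in WT against 1242 to 1319 CPM in the knockout, with 14 of 14 genes lower by edgeR's quasi-likelihood test (Benjamini-Hochberg adjusted p below 0.05). The sum of 15 microglia markers was 2998 to 3220 CPM in WT against 1915 to 1978 CPM in the knockout, with 14 of 15 genes lower. The sum of 15 fibroblast and mural cell markers was 1253 to 1326 CPM and 1566 to 1776 CPM, with 11 of 13 tested genes higher. Acta2, Fn1 and Tagln supplied most of it, with means of 475, 395 and 288 CPM in WT and 586, 540 and 331 CPM in the knockout. The sum of 16 neuron markers was 262 to 341 CPM and 287 to 301 CPM, with 2 of 10 tested genes lower and 0 higher. Most of this sum came from Map2, averaging 260 CPM over the WT libraries and 242 CPM over the knockout libraries. Stmn2 followed with averages of 32.0 and 30.6 CPM. The neuron sum therefore mainly follows Map2. The sum of 13 radial glia and astrocyte markers was 11651 to 12030.4 CPM and 12589.6 to 13096 CPM, with 3 of 13 genes higher and 2 lower. Vim made up most of that sum, at averages of 6270 and 6846 CPM. For 11 oligodendrocyte lineage markers the sum was 453 to 492 CPM and 423 to 441 CPM, with 1 of 8 tested genes higher and 1 lower. Here Cnp, the lower gene, made up most of the sum, at averages of 350 and 295 CPM. None of the markers in these 6 lists was at 0 in all libraries of a genotype. The part of these shifts in the levels below was not tested, and in bulk RNA fewer cells of a type and less RNA per cell cannot be told apart.

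Pomc, Pcsk1 and Scg2 were more than 3-fold higher in the knockout, and all 3 were rare transcripts. The abundant genes Cpe, Pam and Scg3 were 1.13-fold to 1.30-fold higher. Chga and Scg5 had nearly the same means in both genotypes, Chgb was 1.32-fold higher with overlapping libraries, and Pcsk2 alone had a lower mean in the knockout. All 10 genes passed the filter on low counts, 6 were higher by edgeR's quasi-likelihood test (adjusted p below 0.05) and 0 were lower. Over all 14243 tested genes, 26.9% passed, 12.7% as higher and 14.2% as lower, and nothing is read from the comparison because this contrast was in view when the genes were chosen. The median log2 fold change was 0.35 over the 10 genes and 0.0029 over all tested genes. The groups did not overlap for the same number of genes, 6 of 10, against 43.3% of all tested genes. Together the 10 genes took 0.511% to 0.561% of the counts of a WT library and 0.603% to 0.620% of a knockout library, and Cpe alone supplied 75.5% to 78.5% of these counts.

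**Figure D1:**
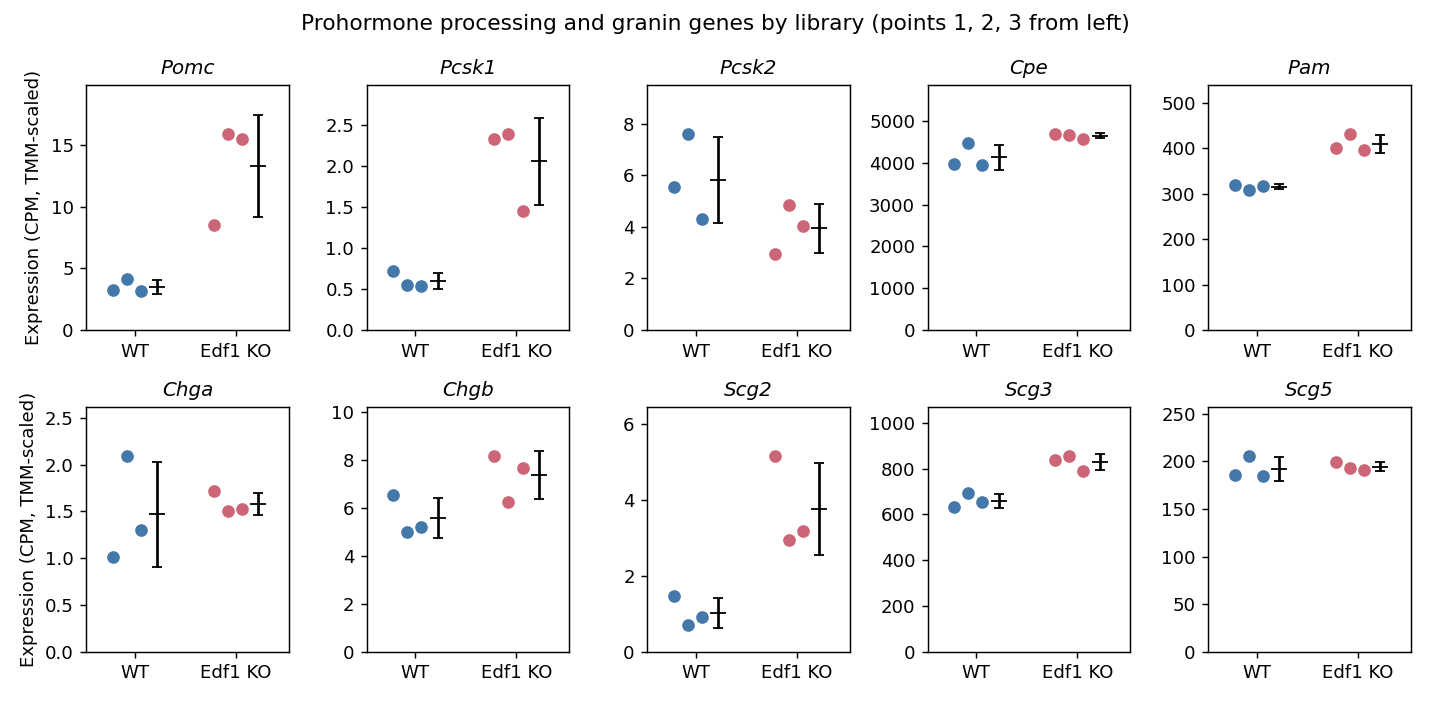
Expression of the 10 genes in CPM (vertical axes, each from 0 and with its own scale) in the 3 WT and 3 Edf1 KO libraries; points are libraries and the bars to their right are mean and SD. The genotypes do not overlap for Pomc, Pcsk1, Cpe, Pam, Scg2 and Scg3.

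Pomc had the highest fold difference of the 10 genes with all libraries in the fit. The order of the first 3 rested on single libraries: without WT replicate 1 the log2 fold change was 2.16 for Scg2 against 1.92 for Pomc, without knockout replicate 2 it was 1.89 against 1.84, and without knockout replicate 3 it was 1.93 for Pcsk1 and 1.88 for Scg2 against 1.84 for Pomc. Pomc lies on chromosome 12 (GRCm38, chr12:3954951-3960642, GENCODE M21). Raw counts were 86, 53 and 58 in WT replicates 1, 2 and 3 and 139, 286 and 439 in knockout replicates 1, 2 and 3. These correspond to 3.24, 4.12 and 3.13 CPM in WT against 8.54, 15.9 and 15.5 CPM in the knockout. Every knockout library lay above every WT library, and knockout replicate 1 was the lowest of its genotype. The means were 3.50 ± 0.54 and 13.3 ± 4.16 CPM (SD, n = 3 each), a 3.81-fold difference and a log2 fold change of 1.97 (SE 0.22). Within a genotype the libraries varied more in the knockout, with a coefficient of variation of 31.2% against 15.4% in WT.

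The convertases differed from each other. Pcsk1 (chr13:75089826-75134861) encodes the convertase that cuts pro-opiomelanocortin to corticotropin, and it was close to the detection limit in WT, where the limit that 3 counts set was 0.113 to 0.233 CPM. Its counts were 19, 7 and 10 for WT replicates 1 to 3, against 38, 43 and 41 for the knockout, or 0.72, 0.54 and 0.54 CPM against 2.34, 2.39 and 1.45 CPM. The genotypes did not overlap, knockout replicate 3 was the lowest knockout library, and the means of 0.60 ± 0.10 and 2.06 ± 0.53 CPM differed 3.43-fold (log2 fold change 1.69, SE 0.32). Pcsk2 (chr2:143546156-143816285) encodes the convertase that acts later in the granule and produces the smaller melanocortins. Its counts were 147, 98 and 80 for WT replicates 1 to 3, against 48, 87 and 114 for the knockout, or 5.53, 7.61 and 4.32 CPM against 2.95, 4.84 and 4.03 CPM. Knockout replicate 2 lay above WT replicate 3, so the genotypes overlapped, and the log2 fold change of -0.52 (SE 0.22) was not under the threshold. Without WT replicate 3 the fold change of Pcsk2 was -0.69 and under the threshold. Exons of Pcsk2 overlap those of 2 antisense genes over 4.54% of their length, and the sources used here do not say whether counting used strand, so a part of its reads cannot be assigned with certainty.

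Cpe and Pam act after the convertases. Cpe (chr8:64592542-64693054), the carboxypeptidase that trims basic residues from peptide ends, ranked 6 by CPM among the 14243 tested genes. It had 3963, 4472 and 3954 CPM in WT against 4694, 4672 and 4579 CPM in the knockout. The lowest knockout library was only just above WT replicate 2, the highest WT library. The means were 4129.9 ± 296 and 4648 ± 61.3 CPM, a log2 fold change of 0.17 (SE 0.053). This is the one call among the 10 genes that was lost when a single library was left out: without WT replicate 1, WT replicate 3 or any 1 of the knockout libraries the fold change was 0.14 to 0.18 and no longer under the threshold, and without WT replicate 2 it was 0.23 and remained under it. Pam (chr1:97795114-98095646), the enzyme that amidates peptide ends, had 319, 309 and 317 CPM in WT against 401, 432 and 397 CPM in the knockout. The knockout libraries were all higher, and the spread within a genotype was small, with 315 ± 5.35 against 410.01 ± 19.1 CPM (log2 fold change 0.38, SE 0.048).

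Among the granins, the acidic proteins of the granule core, Scg2 showed the only difference above 3-fold. Scg2 (chr1:79434669-79440120) encodes secretogranin II, the precursor of secretoneurin. Its counts were 39, 9 and 17 for WT replicates 1 to 3, against 84, 53 and 90 for the knockout, or 1.47, 0.70 and 0.92 CPM against 5.16, 2.95 and 3.18 CPM. All knockout libraries were higher than all WT libraries, and knockout replicate 1, the lowest for Pomc, was the highest for Scg2. The means of 1.03 ± 0.40 and 3.77 ± 1.21 CPM differed 3.66-fold (log2 fold change 1.75, SE 0.31).

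Scg3 (chr9:75643189-75684056), which encodes secretogranin III, a protein that binds chromogranin A and cholesterol-rich granule membranes, was the most abundant granin. It had 632, 692 and 654 CPM in WT against 838, 857 and 791 CPM in the knockout. The genotypes did not overlap, and the means of 659 ± 30.2 and 828 ± 34.1 CPM gave a log2 fold change of 0.33 (SE 0.050). Scg5 (chr2:113776362-113829121), the chaperone and inhibitor of the Pcsk2 convertase, had 186, 206 and 185 CPM in WT against 199.7, 193 and 191 CPM in the knockout. The libraries of the genotypes interleaved, with a log2 fold change of 0.020 (SE 0.055) that was slightly below 0 without WT replicate 1 or WT replicate 3.

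Chga and Chgb encode the chromogranins A and B, which make up much of the granule matrix of endocrine cells. Chga (chr12:102554969-102565028) had 27, 27 and 24 counts in WT against 28, 27 and 43 in the knockout, or 1.02, 2.097 and 1.30 CPM against 1.72, 1.504 and 1.52 CPM. The WT libraries enclosed all knockout libraries, and the log2 fold change of 0.18 (SE 0.30) had a standard error larger than itself and was -0.067 without WT replicate 1. Chgb (chr2:132781278-132795079) had 173, 64 and 96 counts in WT against 133, 112 and 217 in the knockout, or 6.51, 4.97 and 5.19 CPM against 8.17, 6.24 and 7.68 CPM. WT replicate 1 lay above knockout replicate 2, so the genotypes overlapped, and the log2 fold change of 0.38 (SE 0.15) was not under the threshold. Without WT replicate 1 the fold change of Chgb was 0.54 and under the threshold. Chgb and Pam thus had nearly equal fold changes on the log2 scale, but the standard error was 0.15 for the rare Chgb and 0.048 for the abundant Pam.

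**Figure D2:**
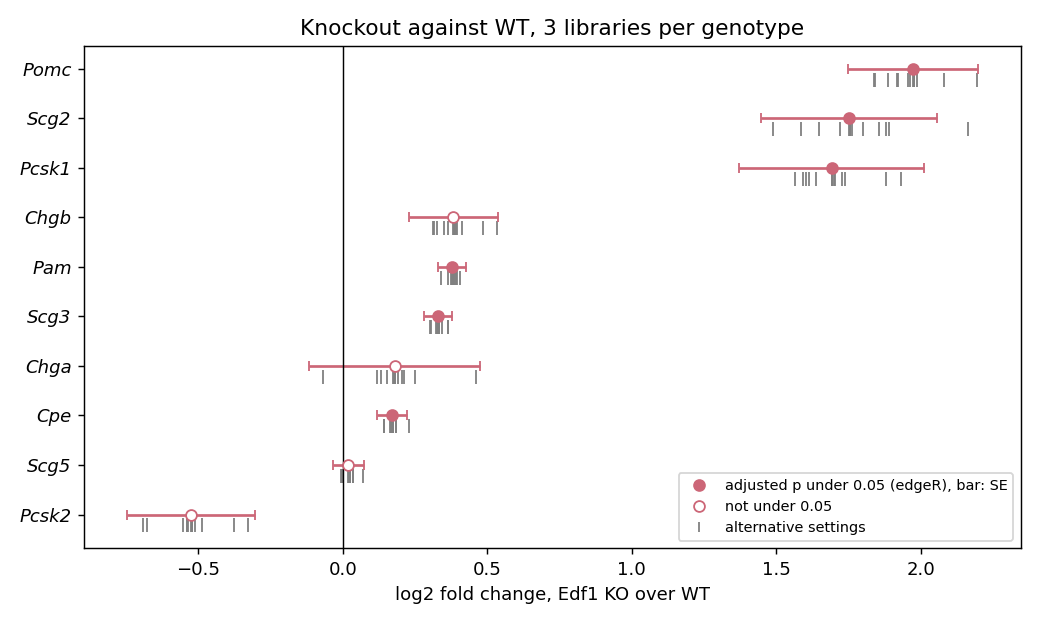
Log2 fold change of Edf1 KO over WT for the 10 genes (horizontal axis), with SE as bars; filled points passed the 0.05 threshold of edgeR's fit and grey ticks are the values under the alternative settings. Pomc, Scg2 and Pcsk1 stand between 1.69 and 1.97, and the other 7 lie between -0.52 and 0.38.

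The promoters of 9 of the 10 genes matched an entry in the RefSeq table (GRCm38.p6). A cyclic AMP response element, TGACGTCA (its own reverse complement), occurred in the 300 bases around the start site of 3 of the 9 genes, Pcsk1, Scg2 and Chgb, and in 2.03% of all 27025 genes with an entry. The shorter TGACG, which is contained in it and was sought on both strands, occurred in 7 of the 9 genes and in 23.0% of all genes. TATAAA, on either strand, occurred in Pomc and Chga, 2 of 9 genes, and in 15.7% of all genes. The 250 bases before the start site are shown for the 3 genes with the full element and for Pomc, which was more than 3-fold higher in the knockout and has no TGACG. They read 5′ to 3′ on the strand of the gene, and capitals mark TGACGTCA in Pcsk1, Scg2 and Chgb and TATAAA in Pomc.
Pcsk1 (chr13:75089607-75089856, + strand): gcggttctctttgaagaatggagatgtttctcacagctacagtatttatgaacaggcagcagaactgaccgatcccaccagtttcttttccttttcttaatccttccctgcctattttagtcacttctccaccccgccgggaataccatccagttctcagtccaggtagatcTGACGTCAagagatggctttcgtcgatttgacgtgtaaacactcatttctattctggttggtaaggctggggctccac
Scg2 (chr1:79440027-79440276, - strand): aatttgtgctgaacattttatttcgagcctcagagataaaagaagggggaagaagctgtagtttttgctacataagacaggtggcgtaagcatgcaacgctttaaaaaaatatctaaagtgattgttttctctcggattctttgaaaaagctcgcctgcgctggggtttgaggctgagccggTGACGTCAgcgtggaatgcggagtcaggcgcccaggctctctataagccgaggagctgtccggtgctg
Chgb (chr2:132781392-132781641, + strand): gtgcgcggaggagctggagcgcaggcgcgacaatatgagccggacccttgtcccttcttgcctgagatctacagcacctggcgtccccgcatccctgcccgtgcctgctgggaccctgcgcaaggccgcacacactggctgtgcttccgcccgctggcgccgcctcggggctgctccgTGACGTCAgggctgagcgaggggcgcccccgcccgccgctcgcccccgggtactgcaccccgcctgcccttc
Pomc (chr12:3954695-3954944, + strand): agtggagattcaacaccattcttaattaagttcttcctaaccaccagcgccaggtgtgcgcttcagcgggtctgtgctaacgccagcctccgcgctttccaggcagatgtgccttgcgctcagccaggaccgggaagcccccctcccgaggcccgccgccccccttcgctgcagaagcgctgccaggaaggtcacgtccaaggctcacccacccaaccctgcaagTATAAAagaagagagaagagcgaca
The element begins at position -78 in Pcsk1, -68 in Scg2 and -72 in Chgb, and TATAAA begins at -25 in Pomc. Here -1 is the base just before the RefSeq start site. GENCODE M21 places the start of Chgb upstream of the printed bases and those of Scg2 and Pcsk1 within them, so these positions hold for RefSeq only. Of the 3 genes with the element, Pcsk1 and Scg2 were 3.43-fold and 3.66-fold higher in the knockout and Chgb was 1.32-fold higher with overlapping libraries. Pomc, with no match to either form of the element in this window, was 3.81-fold higher. These matches describe the letters of the window only.

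Levels between genes were compared per kilobase of the longest GENCODE M21 transcript. In WT, Cpe was highest at 1951 ± 140 CPM per kb, followed by Scg3 at 277 ± 12.7, Scg5 at 159 ± 10.1 and Pam at 76.8 ± 1.30 CPM per kb (SD, n = 3). A gap of 22.9-fold separated Pam from the next gene, Pomc, at 3.35 ± 0.52 CPM per kb. Below Pomc came Chgb at 2.03 ± 0.30, Pcsk2 at 1.23 ± 0.35, Chga at 0.78 ± 0.30, Scg2 at 0.41 ± 0.16 and Pcsk1 at 0.12 ± 0.020 CPM per kb. The ranges over the WT libraries overlapped between Pcsk2 and Chga and between Chga and Scg2, so these neighbours were not separated. The set thus divided into 4 abundant genes and 6 rare ones, and the precursor Pomc was among the rare ones in both genotypes.

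In the knockout the first 6 places were the same, with Pomc at 12.8 ± 3.98 CPM per kb in the fifth place. Scg2, at 1.497 ± 0.48 CPM per kb, stood above Chga (0.84 ± 0.064) and Pcsk2 (0.83 ± 0.20), whose ranges overlapped each other. Pcsk1 was the lowest at 0.41 ± 0.10 CPM per kb. The order of Pcsk1 and Pcsk2 in the knockout depended on the length used: per kilobase of the median annotated transcript, Pcsk1 stood at 1.45 and Pcsk2 at 0.94 CPM per kb there, against 0.42 and 1.38 CPM per kb in WT.

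**Figure D3:**
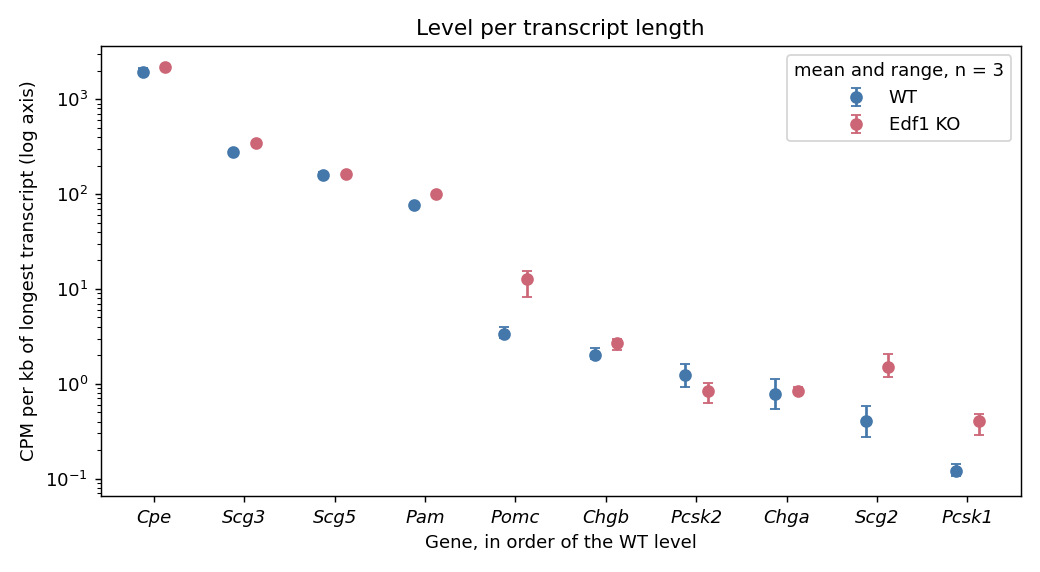
CPM per kb of the longest transcript on a log axis for the 10 genes in order of their WT level, with points for the mean and bars for the range of 3 libraries. Cpe, Scg3, Scg5 and Pam lie above 70 and the other 6 genes below 20 in both genotypes.

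Because Pomc is a defining gene of pituitary corticotrophs, it was set beside 20 markers of pituitary endocrine cells. Prl, the prolactin gene, was at 0 counts throughout WT, which allows up to 0.113 to 0.233 CPM, and 198, 175 and 131 counts in knockout replicates 1, 2 and 3. Gh, the growth hormone gene, was likewise at 0 counts throughout WT and at 15, 10 and 15 counts in knockout replicates 1, 2 and 3. Cga, the common glycoprotein hormone subunit, had 1, 2 and 3 counts in WT against 40, 59 and 59 in the knockout, but 32.0% of its exonic length overlaps the antisense gene Platr9.

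Pomc and Prl had different orders across the knockout libraries, and whether the order bears on the cells that made either transcript was not tested. Prl was 12.2, 9.75 and 4.64 CPM in knockout replicates 1, 2 and 3, while Pomc was 8.54, 15.9 and 15.5 CPM. The ratio of Pomc to Prl counts was thus 0.70, 1.63 and 3.35. In the same libraries Gh was 0.92, 0.56 and 0.53 CPM, and Cga 2.46, 3.29 and 2.09 CPM. Scg2 was 5.16, 2.95 and 3.18 CPM, and Pcsk1 2.34, 2.39 and 1.45 CPM. Scg2 was highest in knockout replicate 1 and Pcsk1 lowest in knockout replicate 3, as Prl and Gh were. Unlike Prl and Gh, Scg2 was lowest and Pcsk1 highest in knockout replicate 2. Cga, like Pcsk1, was highest in knockout replicate 2 and lowest in knockout replicate 3. In WT, Pomc was present at 3.13 to 4.12 CPM with Prl and Gh at 0. Of the factors that mark corticotrophs, Tbx19 had 0 counts throughout WT and 1, 0 and 1 in the knockout, and the corticotropin-releasing hormone receptor gene Crhr1 had 0 to 2 counts in WT against 0 to 3 in the knockout. Pou1f1, the factor of prolactin and growth hormone cells, had 0 to 1 counts in WT against 1 to 4 in the knockout. It was thus near 0 also in libraries with 131 to 198 Prl counts. What factor and receptor counts near 0 mean for the presence of such cells was not tested.

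The summed level of all 20 markers was 15.3 to 17.1 CPM in WT against 14.3 to 22.1 CPM in the knockout. Lhb, at 13.8 to 16.2 CPM in WT against 4.98 to 5.90 CPM in the knockout, made up most of the WT sum, and 20.4% of its exonic length overlaps Ruvbl2 on the other strand. Without Lhb, a choice made after the values were seen, the sum was 0.93 to 2.16 CPM in WT against 8.46 to 17.1 CPM in the knockout. Of the 20 markers, 7 had 0 counts in all WT libraries (among them Prl, Gh, Fshb, Tbx19, Gnrhr and Ghrhr) and 4 had 0 in all knockout libraries (among them Fshb, Nr5a1 and Gnrhr). Only Prl, Cga and Lhb passed the filter on low counts, and 2 were higher and 1 lower. The part of pituitary cells in the differences of Pomc, Pcsk1 and Scg2 was not tested.

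**Figure D4:**
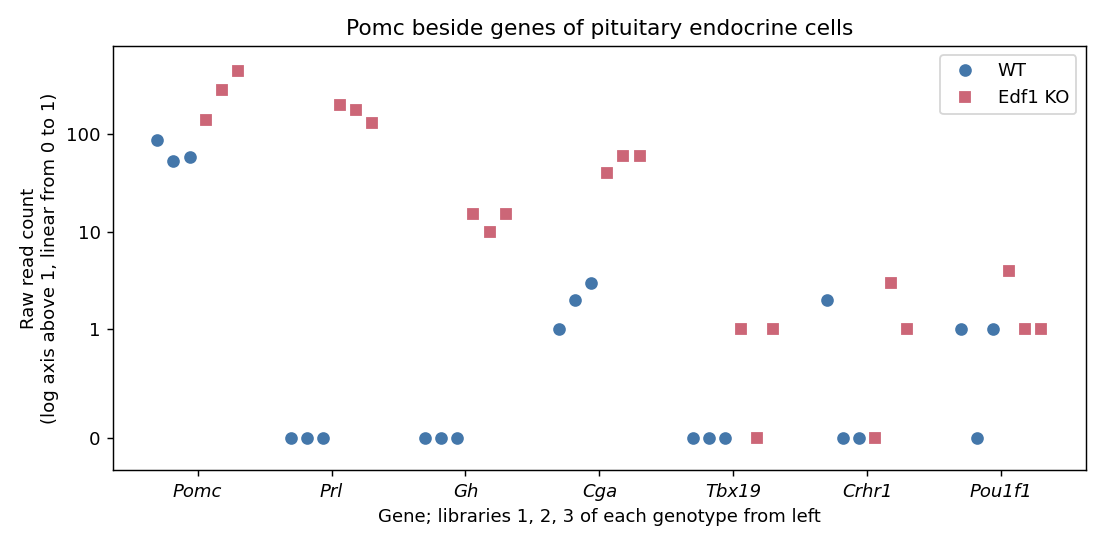
Raw read counts of Pomc and of 6 pituitary genes in the 3 WT libraries (circles) and the 3 Edf1 KO libraries (squares); the axis is logarithmic above 1 and linear from 0 to 1. Pomc is present in all 6 libraries, Prl and Gh are at 0 in WT, and Tbx19 is at 0 or 1 throughout.

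The other genes of precursor processing changed in both directions. Of 22 further processing enzymes, inhibitors and granins, 21 were tested, 6 rose and 4 fell by edgeR's quasi-likelihood test (adjusted p below 0.05), 47.6% against the 26.9% of all tested genes. Their median log2 fold change was 0.082. This list and those below were chosen with earlier results of these data known, so nothing is read from their shares. The largest rise was that of Cpm, a membrane carboxypeptidase that removes basic residues at the cell surface, from 0.38 ± 0.082 to 2.28 ± 0.33 CPM (log2 fold change 2.63, SE 0.31, with an edgeR-adjusted p of 5.71e-05). Its counts were 8, 6 and 7 for WT replicates 1 to 3, against 32, 47 and 64 for the knockout, with no overlap. Ache, the acetylcholinesterase gene, which the list holds although it is no processing enzyme of precursors, rose from 1.86 ± 0.21 to 4.52 ± 1.30 CPM (log2 fold change 1.32, SE 0.24).

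Convertases other than the 2 of the regulated pathway differed in direction too. Pcsk6, which cleaves growth factor precursors outside the cell, fell from 61.1 ± 0.68 to 44.9 ± 1.21 CPM (log2 fold change -0.44, SE 0.056). Pcsk5, which also acts on secreted factors, rose from 3.63 ± 0.98 to 5.56 ± 0.48 CPM (log2 fold change 0.65, SE 0.19, with an edgeR-adjusted p of 0.0245). Spint2, an inhibitor of serine proteases, fell by 0.55 (SE 0.081), and the lysosomal protease gene Ctsb fell by 0.30 (SE 0.047) on the log2 scale, with 12.8% of Ctsb exonic length overlapping Fdft1 on the other strand. Prcp, a carboxypeptidase that can shorten melanocortin peptides, rose by 0.25 (SE 0.076), and Rnpep, an aminopeptidase for basic residues, fell by 0.17 (SE 0.054). The calls of Pcsk5, Prcp and Rnpep were each lost in 4 of the 6 fits that left out 1 library, with adjusted p-values of up to 0.0925, 0.121 and 0.123 by edgeR, and the count for the list was 5 without WT replicate 1 or knockout replicate 2, 6 without knockout replicate 1 or 3, 7 without WT replicate 3 and 12 without WT replicate 2.

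Some genes close to the 10 were chosen for mention after their values were seen. Furin, the convertase of the constitutive pathway, had 59.1 CPM in WT against 67.5 CPM in knockout libraries (log2 fold change 0.19, with an edgeR-adjusted p of 0.0185). Pcsk1n, which encodes the precursor that inhibits the Pcsk1 convertase, had 97.1 and 96.4 CPM (log2 fold change -0.0040, with an edgeR-adjusted p of 0.979). Vgf, a granin-like precursor, had 1.40 and 1.21 CPM (log2 fold change -0.079, SE 0.36, with an edgeR-adjusted p of 0.898), at a depth that leaves a wide error.

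Genes of the dense-core granule, the organelle in which these precursors are stored, passed the test at about the share of all genes. Of 36 listed genes 32 were tested, 6 rose and 2 fell by edgeR's quasi-likelihood test (adjusted p below 0.05), 8 of 32 against 26.9% of all tested genes, with a median log2 fold change of 0.083. Cadps2, which primes granules for release, rose from 9.27 ± 0.072 to 18.3 ± 1.0 CPM (log2 fold change 0.99, SE 0.091, with an edgeR-adjusted p of 7.31e-06). Ptprn2, a phosphatase-like protein of the granule membrane, fell from 21.5 ± 1.10 to 10.97 ± 0.49 CPM (log2 fold change -0.96, SE 0.087). The 2 largest differences of the list were therefore of nearly equal size and opposite direction. Rab3d, a small GTPase of secretory granules, rose by 0.52 (SE 0.11), and Vps51, a subunit of a tethering complex of the trans-Golgi network, fell by 0.22 (SE 0.055), with 18.0% of its exonic length shared with neighbouring genes.

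Syt7, a calcium sensor for granule release, had a log2 fold change of 0.83 (SE 0.28, with an edgeR-adjusted p of 0.0482), and Rab26 one of 0.79 (SE 0.25, with an edgeR-adjusted p of 0.0348). Both passed the test narrowly. Over the 6 fits that left out 1 library the call of Syt7 was lost in 4, with adjusted p-values of up to 0.171 by edgeR, and that of Rab26 in all 6, with up to 0.111 by edgeR. Without knockout replicate 1 the count for the list was 5. The monoamine and neuronal genes Snap25, Dbh, Slc18a2 and Rph3a did not pass the filter on low counts, with at most 21 counts in a library.

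Most other precursors had too few counts to be tested. Of 54 neuropeptide and hormone precursor genes, 47 were detected in some library but only 14 passed the filter on low counts, and 1 rose and 3 fell by edgeR's quasi-likelihood test (adjusted p below 0.05) (28.6%, against 26.9% of all tested genes), with a median log2 fold change of 0.25. Pdyn, the prodynorphin gene, fell from 3.25 ± 0.72 to 1.71 ± 0.15 CPM (log2 fold change -0.95, SE 0.22), the opposite direction to Pomc, the other opioid precursor tested. Nmb, the neuromedin B gene, fell from 19.99 ± 1.70 to 11.8 ± 0.94 CPM (log2 fold change -0.76, SE 0.097), with 20.6% of its exonic length shared with Sec11a. Igf1, the growth factor gene, fell from 54.1 ± 4.303 to 43.6 ± 0.92 CPM (log2 fold change -0.31, SE 0.067). The call of Pdyn was lost without WT replicate 1 (log2 fold change -0.73, with an edgeR-adjusted p of 0.0592). Penk, the third opioid precursor, had 4 to 18 counts in WT against 7 to 11 in the knockout and was not tested.

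**Figure D5:**
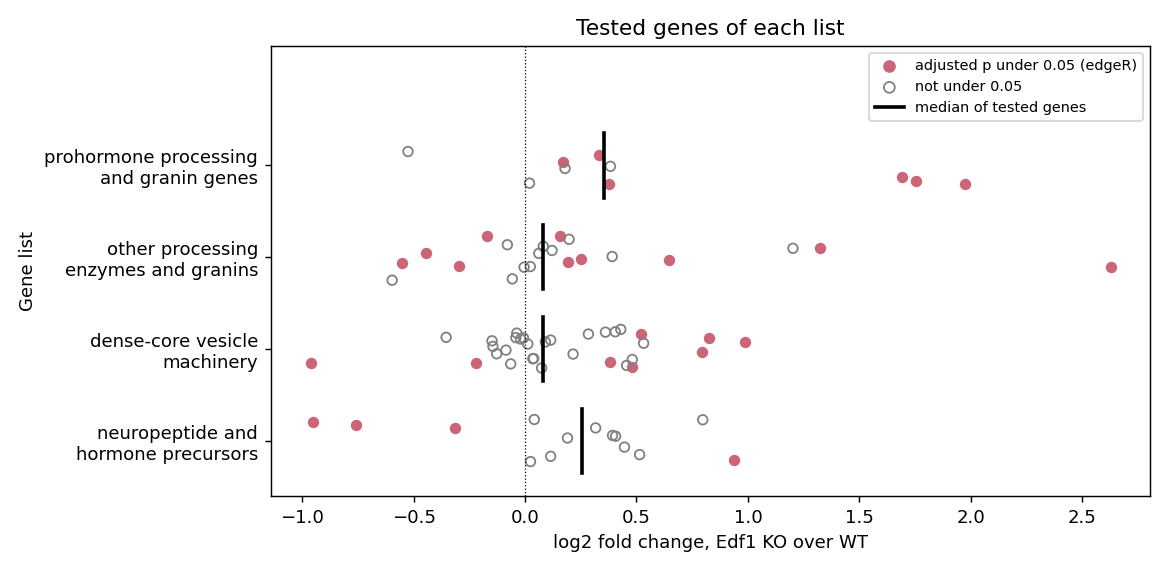
Log2 fold change of Edf1 KO over WT (horizontal axis) for each tested gene of 4 lists, filled where the gene passed the 0.05 threshold of edgeR's fit, with the median as a bar. The medians are 0.35, 0.082, 0.083 and 0.25 from top to bottom, and calls lie on both sides of 0 in all lists but the first.

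Receptors for the products of pro-opiomelanocortin were near or at 0. Of the melanocortin receptors, Mc1r, Mc2r and Mc3r had 0 counts in all 6 libraries, Mc5r had 0 to 2, and Mc4r had 1 to 6 counts in WT against 6 to 9 in the knockout. The opioid receptor gene Oprd1 had 0 counts throughout, Oprm1 had 5 counts in knockout replicate 1 and 0 in the other libraries, and Oprk1 had 0 to 10 counts. Only Atrn, which encodes attractin, an accessory protein of melanocortin signalling in skin, passed the filter on low counts. It had 97.6 ± 13.99 CPM in WT against 113 ± 2.89 CPM in knockout libraries (log2 fold change 0.21, SE 0.085, with an edgeR-adjusted p of 0.0921). Without WT replicate 3 its fold change was 0.28 with an adjusted p-value of 0.0361 by edgeR.

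The genes whose log2 CPM followed that of Pomc most closely over the 6 libraries, among 13597 tested genes with a mean of at least 1 CPM, were Sumf1 (Pearson's r 0.996), Mocs2 (0.993), Hmg20b (0.990), Pcolce (0.989) and Spock3 (0.989). The 6 points share the genotype contrast, so these values mostly rank genes that were higher in the same knockout libraries, and no p-value is given. The sizes differed widely: the log2 fold change was 1.63 for Spock3, close to the 1.97 of Pomc, and 0.17 for Sumf1.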

How the data were processed

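Per the labels' protocols, RNA was extracted with TRIzol and an MGIEasy kit for mRNA was used for the libraries. FastQC 0.11.2, cutadapt 1.11, HISAT2 2.1.0 and the build GRCm38 are named in the submitters' processing notes. The counting program, annotation and strandedness are not given in the sources used here. The deposited values are whole-number read counts for 22851 gene symbols, 1 column per library, read as counts from their values. No row lacks a gene name and 0 columns were left unused.

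The counts were analysed in R 4.3.3. filterByExpr of edgeR 4.0.16 kept 14243 genes, TMM factors were 0.985 to 1.01, and Edf1 KO was tested against WT over all genes with edgeR's quasi-likelihood test and Benjamini-Hochberg adjustment at 0.05. SE is the log2 fold change over the square root of F. CPM uses TMM-scaled totals, and log2 CPM a prior count of 2. The floor of 3 counts covers counting error only. Lengths, positions and exon overlaps are from GENCODE M21, and promoters from RefSeq. In simulated counts of 14243 genes for this comparison, with 200 changed 2-fold, the test recovered 91.0% and 4.71% of its calls were false. With the replicate block 10.3% of the calls were false. In the data 26.9% of genes were called, with a median absolute log2 fold change of 0.40. The simulation therefore gives no rate for differences below 2-fold, such as that of Cpe.

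The members and lists were chosen with earlier results of these data known. Named are the 10 genes, Edf1, up to 4 rises and 4 falls of each further list, tested receptors, Prl, Gh and Cga, and the 5 genes most like Pomc. Other names were chosen after their values were seen. Some genes counted in the lists are not reported here by name. The alternatives were DESeq2 size factors, library size alone, 2 other count filters, DESeq2 1.42.0, limma 3.58.1 voom, the replicate block, each library left out, an adjusted p-value of 0.01, and the median transcript length.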

Additional observations from a re-analysis of the deposited data

How the results depend on the processing

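For Pomc, Pcsk1, Scg2, Pam and Scg3 the log2 fold changes over the alternatives that could be fitted were 1.84 to 2.19, 1.56 to 1.93, 1.49 to 2.16, 0.34 to 0.41 and 0.30 to 0.37, a description of genes chosen with this contrast in view. With a mean of at least 50 counts required, Pcsk1, Chga and Scg2 were not tested. Cpe lost its call at an adjusted p-value of 0.01 and in 5 of the fits that left out 1 library. With 1 library left out Chga ranged from -0.067 to 0.46 and Scg5 from -0.0047 to 0.071. Chga was below 0 without WT replicate 1, and Scg5 was -0.0022 without WT replicate 1 and -0.0047 without WT replicate 3; the cause was not tested. At an adjusted p-value of 0.01 the calls were 2213 over all genes, 5 among the other processing enzymes and granins and 4 in the granule list. Leaving out 1 library gave 2658 to 4340 calls over all genes, 5 to 6 of the 10 genes, 5 to 12, 5 to 9 and 3 to 4 in the further lists, with fewer samples in each fit.

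The replicate number as a block gave 4065 calls over all genes and 8 of the 10 genes, with Chgb (0.41) and Pcsk2 (-0.54) added, while Syt7 lost its call. The deviations of same-numbered libraries from their group means correlated at 0.069, 0.060 and 0.037, and those of differently numbered libraries at -0.072 to 0.029. The labels give a replicate number only, and 3 libraries per genotype cannot decide whether the numbers mark pairs.

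Per kilobase of the median transcript, levels in WT and the knockout were 6463 and 7274 CPM per kb for Cpe, 1149 and 1443 for Scg3, 444 and 578 for Pam, 213 and 216 for Scg5, 2.08 and 2.24 for Chga, and 0.42 and 1.45 for Pcsk1, because many annotated transcripts are short. Pam then stood above Scg5 in both genotypes. Chga stood above Chgb and Pcsk2 in WT and above Scg2 in the knockout, and Pcsk1 stood above Pcsk2 (0.94) in the knockout, where Pcsk2 was then the lowest. Depth limits Pcsk1, Chga and Scg2 most, with 7 to 90 counts per library.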
